A study of Vigna radiata with 42 samples.

Results

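The step from 3 to 6 h of salt was measured by RNA-seq in mung bean (Vigna radiata cv. Weilv 9) leaves. Of the 42 libraries of the time course, 12 were taken by their labelled time: 3 libraries each of T1 at 6 h, T2 at 6 h, T1 at 3 h and T2 at 3 h. T1 seedlings were pre-conditioned, with 24 h in 100 mM NaCl and 48 h of recovery without salt before the final 100 mM NaCl. T2 seedlings met 100 mM NaCl directly. All 4 groups are hydroponically grown seedlings that were in salt when harvested, and the first fully expanded true leaves were sampled. No unsalted plants were sampled at 3 or 6 h, so salt, plant age and time of day cannot be told apart in this step.

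Salt in the root medium lowers the water available to the shoot within minutes, and leaves answer with abscisic acid signalling, stomatal closure and changed carbon use. Sodium builds up in the leaf more slowly and adds an ionic stress. Many leaf transcripts, those for photosynthesis among them, also follow the circadian clock and the light period. The table names genes by ID only, and 0 of its IDs matched the gene list of the reference assembly Vradiata_ver6. Gene functions and leaf marker genes could therefore not be looked up, genes are described by their levels and courses, and only 2 IDs that rose and 2 that fell are named. In bulk leaf RNA, fewer cells of a type and less RNA per cell cannot be told apart.

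The 12 libraries separated by time first. The first principal component held 48.9% of the variance of the log2 values, with the 6 h libraries between 29.3 and 46.7 and the 3 h libraries between -48.8 and -29.2. Pearson's r across the 18326 genes tested was 0.911 to 0.962 between a 6 h and a 3 h library and 0.952 to 0.984 between T1 and T2 libraries of the same time. It was 0.965 to 0.986 within a group. T1 6 h replicate 3 correlated better with the T2 6 h libraries (mean r 0.980) than with its own group (0.972). T1 3 h replicate 1 stood apart in another way. In it, 61 genes were at least 4-fold above every other library of the 12 on the log2(value + 1) scale, against 0 to 7 genes in each of the others, a set chosen after its values were seen. Of the 61, 23 passed the filter on low values and 2 were called in the comparison of 6 h with 3 h, against 40.5% of all genes tested. Genes chosen as high in 1 library have a wide spread, which keeps the number called low by construction. Values are a TPM-like signal deposited by the authors, and their depth is unknown.

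The few highest genes of a library held less of its summed value at 6 h than at 3 h. The 10 highest genes of each library held 10.1%, 10.5% and 11.5% of the summed value in T1 6 h libraries and 9.97%, 9.68% and 9.85% in T2 6 h libraries. They held 16.0%, 15.9% and 15.4% in T1 3 h libraries and 15.4%, 12.2% and 15.6% in T2 3 h libraries. The 6 h and 3 h libraries did not overlap in this share, and the lowest of the 3 h values belonged to T2 replicate 2. The mean difference of -4.81 percentage points gave p = 0.005 in a two-sided exact permutation test within treatments, the smallest p its 400 arrangements allow, and an adjusted p of 0.015 over 6 library values tested. The 100 highest genes held 29.2% to 32.2% at 6 h and 31.8% to 38.0% at 3 h (exact permutation p = 0.005, adjusted p = 0.015). A factor that scales a whole library leaves these shares as they are.

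The summed value on the deposited scale was 951418 to 969511 in T1 6 h libraries and 884124 to 939909 in T2 6 h libraries. It was 1103699 to 1140245 in T1 3 h libraries and 924761 to 1087169 in T2 3 h libraries. T2 3 h replicate 2 lay within the range of the 6 h libraries, and the other 5 libraries at 3 h lay above it (exact permutation p = 0.01, adjusted p = 0.02). Genes at a value of at least 1 numbered 17235 to 17483 at 6 h and 17462 to 18046 at 3 h, with the highest number in T1 3 h replicate 1 (exact permutation p = 0.015, adjusted p = 0.0225). Unlike the shares above, this number moves with a factor that scales a whole library. The part that scale has in it was not tested. The share of IDs with a Pt prefix was 0.196% to 0.423% at 6 h and 0.167% to 0.748% at 3 h (exact permutation p = 0.94, adjusted p = 0.94). The highest share was in T1 3 h replicate 3.

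**Figure D1:**
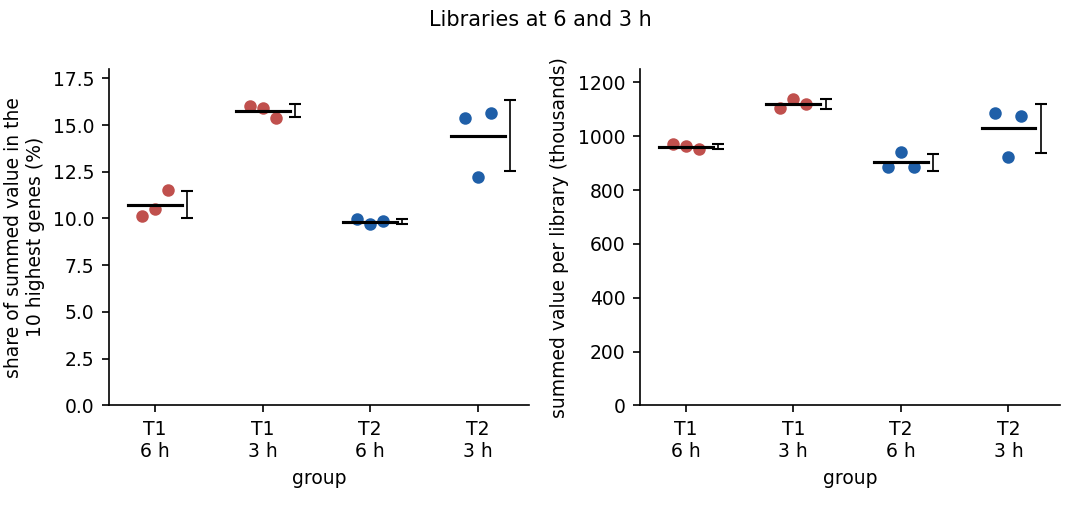
Each point is 1 library of T1 or T2 at 6 or 3 h, the thick line is the mean of 3 and the bar beside it the SD. The left axis gives the share of the summed value held by the 10 highest genes in percent, which was 9.68% to 11.5% at 6 h and 12.2% to 16.0% at 3 h. The right axis gives the summed deposited value, which was lower at 6 h except that T2 3 h replicate 2 lay among the 6 h libraries.

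Leaf expression changed widely between 3 and 6 h. With treatment as a blocking factor, limma called 7429 of 18326 genes, or 40.5%, at an adjusted p under 0.05. Of these, 3566 (19.5%) were higher and 3863 (21.1%) lower at 6 h. On the deposited scale, though not with all libraries at an equal total, 2-fold changes were more often falls: 820 genes (4.47%) were called and at least 2-fold lower and 433 (2.36%) at least 2-fold higher, while 109 (0.595%) were at least 4-fold lower and 84 (0.458%) at least 4-fold higher. In 1669 genes (9.11%) all 6 libraries at 6 h lay above all 6 at 3 h, and in 1888 (10.3%) all 6 lay below. The split of calls by direction depended on scaling. With all libraries scaled to an equal total, the median change of all genes was 0.18 on the log2 scale, against -0.00 as deposited, and 6970 genes were higher and 2337 lower, and the 2-fold counts were 665 higher and 543 lower. The share of calls that were higher was 48.0% as deposited, 51.1% after median-of-ratios scaling, 54.5% after quantile normalization and 74.9% at equal totals.

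Few genes crossed from near 0. In 18 of the 28740 genes of the table the value was at least 1 in all 6 libraries at 6 h and under 1 in all 6 at 3 h, with a median mean of 3.24 at 6 h and 0.521 at 3 h. In 67 genes it was under 1 in all 6 libraries at 6 h and at least 1 in all 6 at 3 h, with medians of 0.514 at 6 h and 1.83 at 3 h. The highest mean among the 18 was 14.2 at 6 h, and among the 67 it was 3.57 at 3 h. Another 16055 genes were at 1 or more in all 12 libraries and 9484 under 1 in all 12. Most genes of the table were thus on the same side of 1 in all 12 libraries.

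Genes at every level of expression were called. They were put in classes by their mean over all 42 libraries. Of 1442 genes with a mean of 100 or more, 34.8% were lower and 16.4% higher at 6 h, but 26.5% were lower and 33.2% higher with every library at the same total. Their median change was -0.11 as deposited, and relative to the median of all genes it was -0.10 as deposited, -0.08 at equal totals, -0.10 after median-of-ratios scaling and -0.03 after quantile normalization. Of 5972 genes with a mean of 20 to under 100, 20.6% were lower and 22.9% higher, and of 6727 genes with a mean of 5 to under 20, 18.7% were lower and 20.6% higher. At equal totals these shares were 11.9% lower and 46.8% higher for means of 20 to under 100, and 10.5% lower and 41.0% higher for means of 5 to under 20. Of 4185 genes with a mean under 5, 20.8% were lower and 13.7% higher, against 13.8% lower and 20.1% higher after quantile normalization and 12.9% lower and 22.4% higher at equal totals. Calls by ID prefix lay between 39.2% and 42.8% for the 11 numbered prefixes, near the 40.5% of all genes.

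The summed fall came from few genes. Called lower genes summed to 258634 in T1 at 6 h and 511264 in T1 at 3 h, and to 235819 in T2 at 6 h and 446518 in T2 at 3 h. Called higher genes summed to 233126 in T1 at 6 h and 143586 in T1 at 3 h, and to 224229 in T2 at 6 h and 128928 in T2 at 3 h. Genes that were not called summed to 468988 in T1 at 6 h, 464863 in T1 at 3 h, 442282 in T2 at 6 h and 452249 in T2 at 3 h. Falls were more concentrated than rises. On the deposited scale, the 39 genes with the largest falls of the mean value made up 50% of the summed fall in T1 and 46 genes did so in T2. For the summed rise, 158 genes were needed in T1 and 118 in T2. The 10 largest falls held 32.6% of the summed fall in T1 and 30.4% in T2.

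Genes chosen for their fall in 1 treatment were also lower at 6 h in the other. Of all genes tested, 51.0% had a log2 change below 0 in T2 and 50.1% in T1. The 100 genes with the largest falls of the mean deposited value in T1 were lower at 6 h than at 3 h in T2 in 96 cases. Their summed share in the T2 libraries was 15.6% to 17.9% at 6 h and 25.5% to 29.3% at 3 h. The 100 genes with the largest falls in T2 were lower at 6 h in T1 in 97 cases, with 16.6% to 20.6% of the summed value in T1 6 h libraries and 29.6% to 32.3% in T1 3 h libraries. The share stayed low at 12 h and was higher again a day after the start of salt. At 0, 1 and 3, then 6, 12, 24 and 48 h the first set held 28.6%, 27.3%, 28.0%, 16.4%, 14.3%, 25.0% and 24.6% of the T2 sum. In that order of times the second set held 35.4%, 34.2%, 31.0%, 18.3%, 15.8%, 30.5% and 25.0% of the T1 sum. The T1 value at 0 h is a mean over libraries at 38.5%, 28.3% and 38.6%, with replicate 2 the low one. The 0, 24 and 48 h samples share a clock time, so time of day and hours of salt cannot be told apart in these courses.

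Whether pre-conditioned and directly salted leaves made the same step was asked by estimating it in each. In T1, 4584 genes (25.0%) were called, 2200 higher (12.0%) and 2384 lower (13.0%) at 6 h. In T2, 4115 genes (22.5%) were called, 1904 higher (10.4%) and 2211 lower (12.1%). Pearson's r between the T1 and T2 changes, which share no library, was 0.785 across 18326 genes and Spearman's rho was 0.746. The changes had the same sign in 78.6% of genes. These values run across genes, which are no independent replicates, and carry no p. The T1 count was 2560, 2920 and 2622 without T1 3 h replicate 1, T1 3 h replicate 2 and T1 6 h replicate 1. The T2 count was 2559 and 2321 without T2 6 h replicates 1 and 3. Each of these fits has 2 libraries in the group concerned.

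Most genes called in a fit to the 6 libraries of 1 treatment had a change of the same sign in the other. Fits to T1 alone called 21.0% of genes and fits to T2 alone 16.0%. Of 1679 genes higher at 6 h in T1 alone (9.16%), 1606 had a positive change in T2, with a median of 0.53 and quartiles of 0.30 and 0.90. Of 2170 genes lower in T1 alone (11.8%), 2106 had a negative change in T2, with a median of -0.73 and quartiles of -1.13 and -0.45. Of 1362 genes higher in T2 alone (7.43%), 1335 had a positive change in T1, with a median of 0.61. Of 1575 genes lower in T2 alone (8.59%), 1545 had a negative change in T1, with a median of -0.84. Over all genes tested the median change was -0.00 in T1 and -0.01 in T2. It was positive in 49.9% of all genes in T1 and 49.0% in T2, and negative in 50.1% and 51.0%. Both fits called 804 genes higher, which is 47.9% of the T1 list and 59.0% of the T2 list. Both called 1084 genes lower, which is 1084 of the 2170 in the T1 list and 68.8% of the T2 list. In 3 genes T1 was higher and T2 lower, and in 0 genes the reverse.

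**Figure D2:**
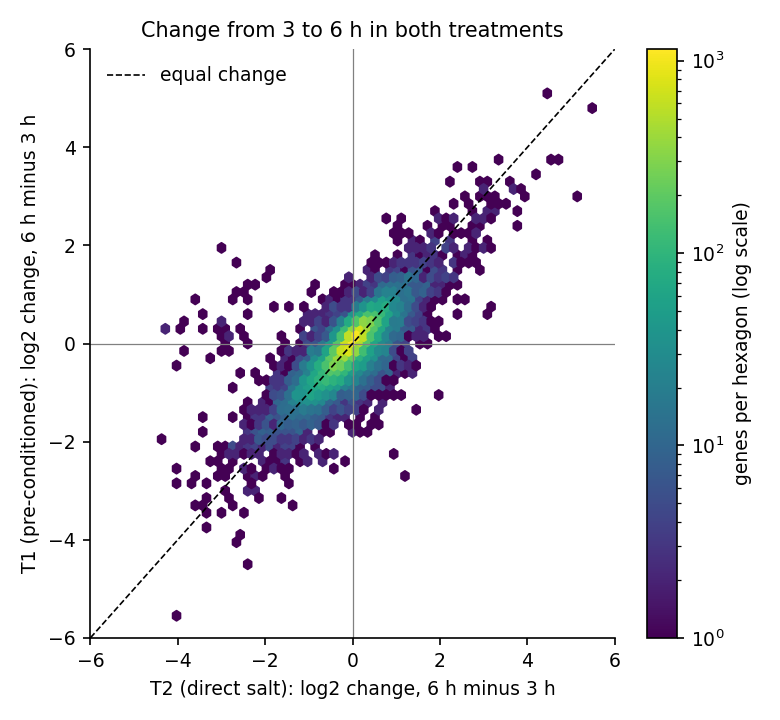
Each hexagon counts genes, on a log colour scale, by their log2 change from 3 to 6 h in T2 (horizontal axis) and in T1 (vertical axis), and the dashed line marks equal change. The 18326 genes lie along that line (Pearson's r 0.785), with a small group to the left of it that fell in T2 and lay near or above 0 in T1.

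A difference between the steps, T1 minus T2, was called in 0 genes (0.00%) by limma, with 1166 genes (6.36%) at an unadjusted p under 0.05. The smallest adjusted p was 0.511. Of the 1166, 588 had the higher change in T1 and 578 the lower. The difference had a median of 0.01, quartiles of -0.16 and 0.16, and 5th and 95th percentiles of -0.65 and 0.46 on the log2 scale. It was 1 or more in size in 456 genes. The median SE of the difference was 0.22, against 0.11 for the change over both treatments. The absence of calls does not show that the steps were alike.

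The rising genes were at their highest median level at 6 h. For genes chosen as higher at 6 h in T1 alone, the median levels in T2 at 0, 1 and 3, then 6, 12, 24 and 48 h were 16.2, 14.8, 15.9, 24.9, 21.2, 18.1 and 16.7. The 6 h medians of single libraries, 24.1 to 26.7, lay above those of every other time in T2. From 12 to 24 h, 44.7% of these genes went up in T2 and 19.1% fell at least 2-fold, against 51.9% and 6.67% of all genes tested. For genes chosen as higher in T2 alone, the median levels in T1 in that order of times were 12.3, 13.2, 15.4, 26.1, 24.1, 13.7 and 14.1. Their library medians in T1 overlapped between 6 h, at 24.8 to 29.0, and 12 h, at 22.3 to 25.4. Their course had turned up before 3 h: 73.2% of them were higher at 3 h than at 1 h in T1, against 52.5% of all genes, while for the first set in T2 the shares were 57.8% and 50.9%. From 12 to 24 h, 25.0% of them went up in T1 and 32.6% fell at least 2-fold, against 51.3% and 7.55% of all genes. The second set was thus back near its 1 h level at 24 h, and the first was still above it.

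The falling genes made the opposite course. For genes chosen as lower at 6 h in T1 alone, the median levels in T2 at 0, 1 and 3, then 6, 12, 24 and 48 h were 20.2, 25.1, 20.7, 11.3, 13.0, 17.7 and 21.5. In T2, 16.5% of them were at least 2-fold higher at 1 h than at 0 h, against 6.26% of all genes. For genes chosen as lower in T2 alone, the median levels in T1 in that order were 20.9, 22.3, 20.01, 10.4, 12.4, 20.5 and 22.5. In T1, 9.84% of them were at least 2-fold higher at 1 h than at 0 h, against 3.36% of all genes. From 12 to 24 h, 23.8% of the first set in T2 and 32.8% of the second set in T1 rose at least 2-fold, against 7.88% and 8.68% of all genes. The median over all genes tested stayed between 13.4 and 14.2 at every time in either treatment. T1 0 h replicate 2 had a median of 15.9 for the second set, against 23.2 and 25.3 in replicates 1 and 3, and the median change of that set at 1 h against 0 h in T1 was 0.04 with it and -0.11 without it.

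**Figure D3:**
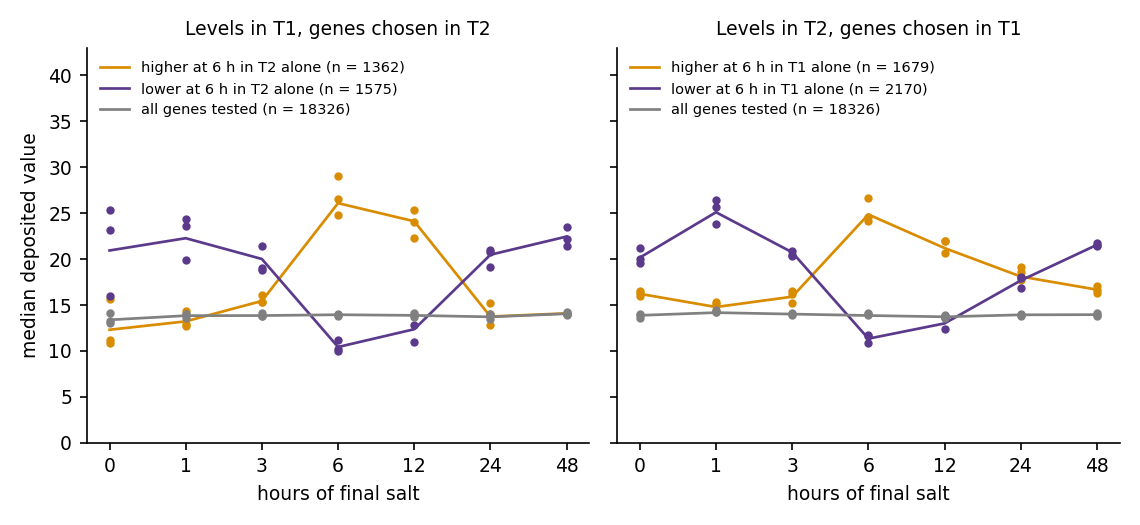
Lines give the median, over the genes of a set, of the mean deposited value at each of 7 times, and points give the median in each library. Left, levels in T1 of genes called in T2 alone, and right, levels in T2 of genes called in T1 alone. Genes higher at 6 h peak at 6 h, at 26.1 (left) and 24.9 (right). Genes lower at 6 h have their lowest medians there, 10.4 (left) and 11.3 (right), and all genes tested stay flat.

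The genes with a change of 2-fold or more over both treatments were also followed through the times that did not enter their choice. At 0, 1, 12, 24 and 48 h the 433 higher genes had median levels of 5.96, 7.12, 26.0, 7.62 and 9.17 in T1, and of 8.45, 8.60, 26.1, 10.8 and 11.3 in T2. At 12 h, 241 of them (55.7%) were at least 2-fold above 0 h in T1 and 198 (45.7%) in T2, against 8.47% and 8.79% of all genes. Without T1 0 h replicate 2 the T1 number was 281 (64.9%), against 9.06% of all genes. At 24 h 63 (14.5%) were at least 2-fold above 0 h in T1, or 87 (20.1%) without that library, and 66 (15.2%) in T2. Each time was counted separately, so these need not be genes counted at 12 h. Over all genes the share at 24 h was 3.45% in T1, or 3.69% without that library, and 2.77% in T2, so it too was lower at 24 h than at 12 h. At 48 h, 140 (32.3%) were at least 2-fold above 0 h in T1, or 168 (38.8%) without that library, and 117 (27.0%) in T2. Another 61 (14.1%) in T1, or 34 (7.85%) without that library, and 79 (18.2%) in T2 were at least 2-fold below 0 h. The share of all genes below 0 h was 8.15% in T1, or 7.93% without that library, and 7.02% in T2. Over all genes the share above at 48 h was 8.72% in T1, or 8.59% without that library, and 6.25% in T2.

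For the 820 lower genes the median levels at 0, 1, 12, 24 and 48 h were 24.8, 29.9, 11.3, 21.6 and 25.0 in T1, and 18.2, 31.9, 9.86, 16.7 and 24.1 in T2. At 12 h, 436 of them (53.2%) were at least 2-fold below 0 h in T1 and 368 (44.9%) in T2, against 9.12% and 10.3% of all genes. Without T1 0 h replicate 2 the T1 number was 507 (61.8%), against 9.44% of all genes. At 24 h, 119 (14.5%) were 2-fold below 0 h in T1, or 195 (23.8%) without that library, and 116 (14.1%) in T2. The share over all genes at 24 h was 2.86% in T1, or 3.10% without that library, and 3.29% in T2. At 48 h, 193 (23.5%) were 2-fold below 0 h in T1, or 261 (31.8%) without that library, and 111 (13.5%) in T2. Another 142 (17.3%) in T1, or 105 (12.8%) without that library, and 166 (20.2%) in T2 were at least 2-fold above 0 h. The share of all genes above 0 h was 8.72% in T1, or 8.59% without that library, and 6.25% in T2. Over all genes the share below at 48 h was 8.15% in T1, or 7.93% without that library, and 7.02% in T2. At 1 h, 229 (27.9%) were at least 2-fold above 0 h in T2, against 6.26% of all genes, and 132 (16.1%) in T1, against 3.36%, or 101 (12.3%) without that library, against 4.16%. Those at least 2-fold below 0 h at 1 h in T1 numbered 29 (3.54%), against 1.09% of all genes. Without that library they numbered 100 (12.2%), against 1.72% of all genes, so that about as many were then lower as higher.

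Of genes called, with a mean of at least 5 at the time where they were higher and the same direction in T1 and T2, Virad01G0040400 had the largest rise. It stood at 241, 109 and 83.8 in T1 at 6 h and at 188, 246 and 358 in T2 at 6 h. At 3 h it stood at 2.33, 1.99 and 10.2 in T1 and at 3.10, 11.4 and 2.11 in T2. Every 6 h library lay above every 3 h library. The means were 145 ± 84.7 in T1 and 264 ± 86.5 in T2 at 6 h, against 4.85 ± 4.66 and 5.52 ± 5.08 at 3 h (SD, n = 3), which is 29.8-fold in T1 and 47.8-fold in T2. The log2 change over both treatments was 5.17 (SE 0.43, limma adjusted p = 1.1e-05). It went on to 654 ± 161 in T1 and 685 ± 136 in T2 at 12 h and was at 1.57 ± 1.58 and 8.14 ± 9.66 at 24 h. At 0 h it was at 0.335 ± 0.237 in T1 and 0.650 ± 0.482 in T2.

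Virad03G0270700 came second among the rises and peaked at 6 h itself. Its values were 743, 258 and 227 in T1 at 6 h and 284, 331 and 255 in T2 at 6 h. They were 2.22, 12.0 and 24.9 in T1 at 3 h and 12.4, 16.2 and 8.46 in T2 at 3 h. The 2 times did not overlap, and T1 replicate 1 had the highest value at 6 h and the lowest at 3 h. The log2 change was 4.79 (SE 0.45, limma adjusted p = 2.04e-05), or 31.4-fold in T1 and 23.5-fold in T2 on the means. The level was 118 ± 34.5 in T1 and 109 ± 14.9 in T2 at 12 h and 1.38 ± 0.472 and 3.13 ± 2.29 at 24 h (SD, n = 3). At 0 h it was 0.730 ± 0.173 and 0.720 ± 0.0486.

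Virad07G0144600 had the largest fall. It stood at 1.17, 2.03 and 5.66 in T1 at 6 h and at 18.9, 4.78 and 6.67 in T2 at 6 h. At 3 h it stood at 266, 270 and 58.0 in T1 and at 62.0, 229 and 301 in T2. The 6 h values all lay below the 3 h values, which ranged between 58.0 and 301. The log2 change was -4.81 (SE 0.55, limma adjusted p = 6.63e-05). In T1 it was at 25.9 ± 17.1 at 12 h and 158 ± 34.5 at 24 h, and in T2 at 12.7 ± 5.94 and 33.9 ± 21.5 (SD, n = 3). At 0 h the T1 libraries held 447, 1.54 and 702, with T1 0 h replicate 2 the low one, and the T2 libraries 30.5, 1.79 and 8.87.

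Virad08G0096800 had the second largest fall and, ranked by the fall of the mean value, was at rank 11 in T1 and rank 12 in T2. Its values were 62.5, 212 and 201 in T1 at 6 h and 706, 555 and 441 in T2 at 6 h. They were 4345, 3976 and 2028 in T1 at 3 h and 2047, 3828 and 3780 in T2 at 3 h. The log2 change was -3.51 (SE 0.44, limma adjusted p = 0.000113), with -4.55 in T1 and -2.47 in T2. The difference between the treatments of -2.08 (SE 0.67) had an unadjusted limma p of 0.0101 and an adjusted p of 0.72. At 12 h the gene stood at 1499 ± 277 in T1 and 695 ± 165 in T2 and at 24 h at 4035 ± 297 and 1967 ± 565 (SD, n = 3). By 48 h it was at 1046 ± 230 in T1 and 231 ± 125 in T2, the latter below the 6 h mean of 567 in T2. At 0 h the T1 libraries held 7690, 614 and 7094, with replicate 2 the low one. The T2 libraries held 1727, 528 and 869 at 0 h, a range that overlaps the 6 h values in T2.

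**Figure D4:**
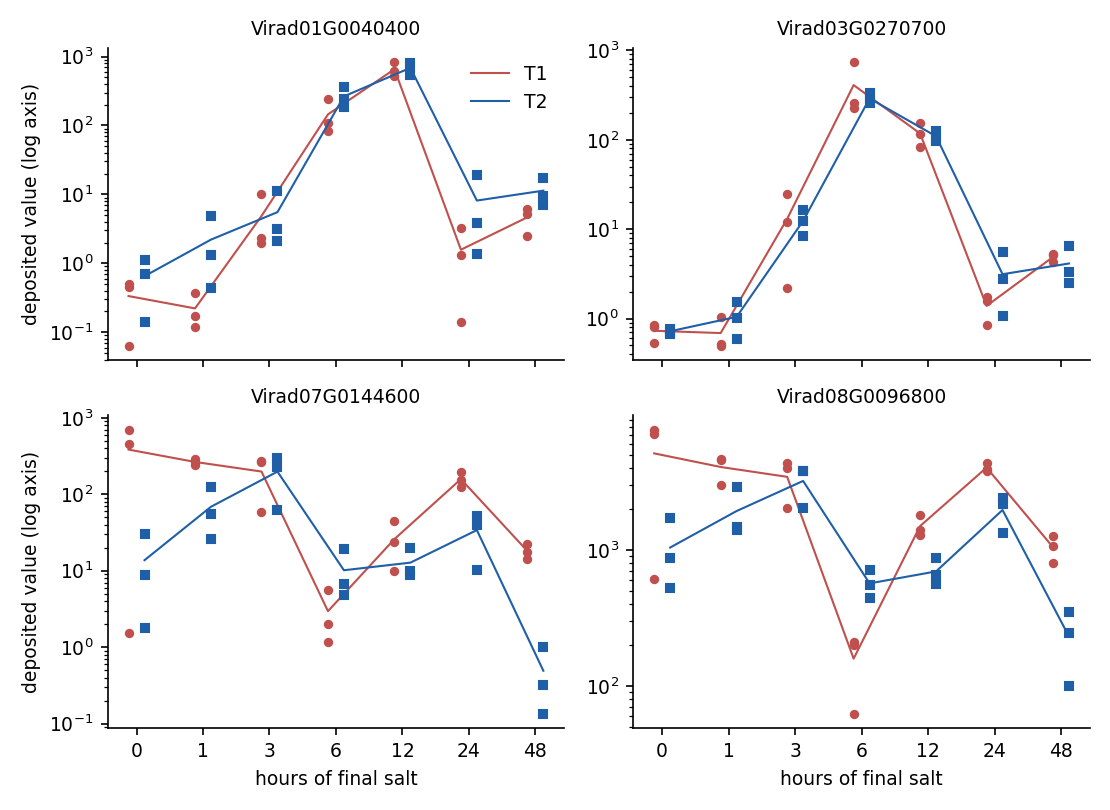
Deposited values of the 4 named genes (log axis) by hours of final salt in T1 (circles) and T2 (squares), 1 point per library, with lines through the means of 3. Virad01G0040400 and Virad03G0270700 lie 23.5-fold to 47.8-fold higher at 6 h than at 3 h and have means of 8.14 or less at 24 h, and Virad07G0144600 and Virad08G0096800 have no 6 h value above any 3 h value.

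IDs with the prefixes Pt and Mt were few. Of 26 IDs with the Pt prefix, 24 passed the filter, 0 were higher and 7 lower, or 29.2% called against 40.5% of all genes. Their median change was -0.23 as deposited and -0.07 with every library at the same total, when 2 were higher and 4 lower. Of 44 Mt IDs, 5 passed the filter and none was called by limma, with changes between -0.30 and -0.05 as deposited. With every library at the same total, and after quantile normalization, 2 of the 5 changes lay above 0. The libraries were made from poly(A) RNA, which organelle transcripts enter poorly.

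Beside the other steps between successive times, each fitted in the same way to its own 12 libraries, the 6 h count was intermediate. For 1 h against 0 h 19.8% of tested genes were called, 11.8% higher and 7.99% lower. For 3 h against 1 h 18.7% were called, 8.71% higher, with 1879 genes lower. The 40.5% for 6 h against 3 h came next. For 12 h against 6 h 57.5% were called, 27.6% higher and 29.9% lower, and for 24 h against 12 h 58.2%, with 30.4% higher and 27.9% lower. For 48 h against 24 h 47.8% were called, 24.7% higher and 23.1% lower. Adjacent steps share libraries and the steps span different numbers of hours, so the counts are given side by side without a test. The other steps were fitted on the deposited scale only. A difference between the T1 and T2 changes was called in 0 genes for 6 h against 3 h and for 12 h against 6 h. It was called in 3 genes for 1 h against 0 h and 44 for 3 h against 1 h. For 24 h against 12 h it was called in 96 genes, and for 48 h against 24 h in 1887.

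**Figure D5:**
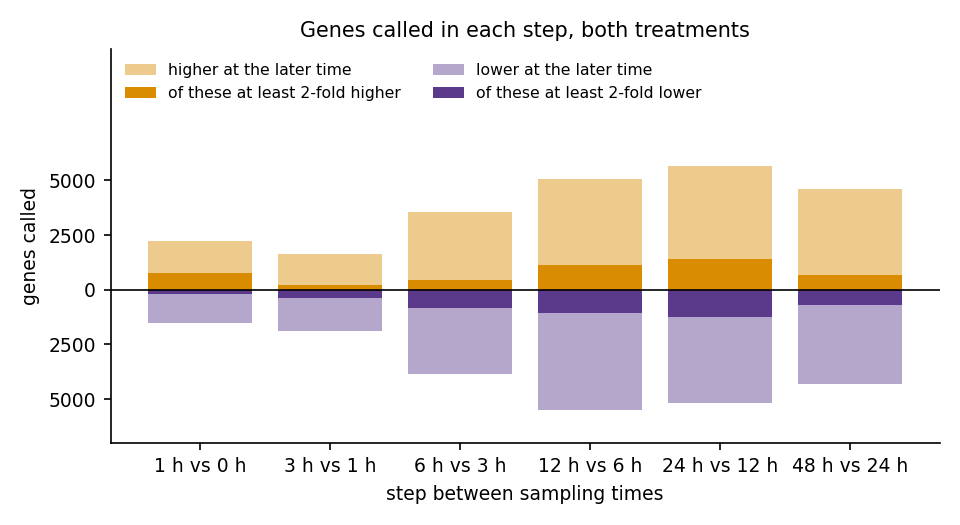
Bars above 0 count genes called higher at the later time and bars below 0 genes called lower, with the at least 2-fold part in full colour, for 6 steps over both treatments. The step to 6 h has 3566 genes higher and 3863 lower, of which 433 and 820 changed at least 2-fold.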

How the data were processed

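The submitters' processing notes name fastp 1.0.1, HISAT2 2.2.1, featureCounts and DESeq2 1.48.2, with no settings; for the genome build and annotation nothing is given in the sources used here. The authors' deposited signal is called TPM, but its columns sum to between 783218 and 1228250, so it was treated as a scaled signal of unknown depth, and the test for normalized values was used on it.

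Values were compared as log2(value + 1), which understates changes of low genes. Median levels of gene sets over the times are medians of group means of log2(value + 1), turned back to the deposited scale. Genes that reached 1 in 3 or more of the 12 libraries were tested, 18326 of 28740 (63.8%). The models were limma's (3.58.1, R 4.3.3), moderated with a robust variance trend, two-sided, with Benjamini-Hochberg adjustment over all genes tested and a threshold of 0.05. The main model held treatment and time; T1, T2 and their difference came from a model with 1 mean per group. Fits were tested on simulated data. Library values were compared with exact permutation tests (Python 3.11.15, numpy 2.4.6). Named genes had the 2 largest rises and 2 largest falls among called genes with a mean of at least 5 at the higher time and the same direction in both treatments. The labels call libraries replicates, and whether these are separate plants is not given. The p-values therefore set a difference against the variation between these libraries, and need not extend to separate plants. The comparison and its lists were chosen with earlier results of these data known. Product-based gene lists were not run because the IDs carry no names.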

Additional observations from a re-analysis of the deposited data

How the results depend on the processing

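Over both treatments the count of called genes stayed between 5860 and 9307 in 13 alternatives (pseudocounts, filters, scalings, other models). The number of genes tested differed between them. Of 13800 genes with a mean of at least 5, 5860 were called, and of 24469 genes without a filter, 7650. At equal totals 9307 of 18320 were called. The count was between 6617 (of 18230 tested) and 7426 (of 18240) when each of the 12 libraries was left out. The 4 named genes kept their direction and call in all of these fits. They were chosen for the largest changes in the same 12 libraries, so this is no separate support. With every library at the same total, 6970 genes were higher and 2337 lower, at least 2-fold in 665 and 543, and the median T2 step of genes that rose in T1 alone was 0.46. Leaving out each library gave 2560 to 5184 genes in T1 and 2321 to 4111 in T2, medians of 0.50 to 0.99 and -1.01 to -0.70 in T2 for genes that rose and fell in T1 alone, 0.56 to 1.02 and -1.20 to -0.76 in T1 for genes that rose and fell in T2 alone, and a correlation of 0.738 to 0.805. Without T1 6 h replicate 3, nearer to another group, the medians in T2 were 0.59 and -0.81. For genes that fell in T1 alone the median was -0.80 at a pseudocount of 0.5 and -0.84 at 0.1, and for those that fell in T2 alone -0.95 at 0.1, since a smaller pseudocount enlarges low changes by construction.

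Same-numbered libraries did not deviate together throughout. The r of the deviations of 6 h and 3 h libraries with numbers 1, 2 and 3 was -0.34, 0.19 and 0.04 in T1 and -0.12, -0.15 and -0.21 in T2. Between T1 and T2 libraries it was 0.0024, 0.47 and 0.56 at 6 h and 0.12, 0.01 and -0.29 at 3 h. With a replicate block of 6 pairs 6300 genes were called over both treatments, 2667 in T1 and 2461 in T2, and 7181 over both with the number as 3 levels. Not every library correlated best with its own number. The difference between the steps was called in 0 genes in every alternative run, with 752 to 1488 at an unadjusted p under 0.05. Unknown depth limits what can be said of low genes.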

Other observations

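The small group of genes away from the common line of the T1 and T2 changes was in part made of IDs in succession. A difference of at least 2 on the log2 scale was seen in 54 genes, and 28 of them lay in 2 runs of ID numbers, 19 of 22 successive IDs that begin with Virad03G026 and 9 of 10 that begin with Virad07G020. These were chosen after their values were seen and have no test. In the first run the median change was 0.20 in T1 and -2.998 in T2, and in the second 1.01 in T1 and -2.70 in T2. No difference was called in them, with a smallest adjusted p of 0.72 in the first and 0.557 in the second run by limma.

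The run medians varied widely between libraries of a group. The median value of the first run was 115, 56.9 and 10.8 in T1 at 6 h and 2.41, 1.79 and 1.41 in T2 at 6 h. It was 19.5, 35.1 and 74.6 in T1 at 3 h and 21.4, 141 and 4.55 in T2 at 3 h. That of the second run was 297, 95.05 and 61.0 in T1 at 6 h and 10.9, 29.5 and 16.6 in T2 at 6 h, against 18.2, 49.7 and 100 in T1 at 3 h and 97.1, 489 and 52.1 in T2 at 3 h. In both runs T2 3 h replicate 2 was the highest of its group. At 48 h the T1 libraries lay above the T2 libraries in both runs: the second stood at 157 to 325 in T1 and 3.14 to 5.09 in T2, and the first at 4.34 to 9.83 in T1 and 0.719 to 1.02 in T2. These values are uncertain if the IDs are near-identical copies among which reads could be split, which no label or file says.

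The 61 genes that stood out in T1 3 h replicate 1, also chosen after their values were seen, were high in scattered single libraries of the series. Their median value was 18.4 in that library and 0.549 or less in the other 11 libraries at 3 and 6 h. It was 20.4 in T1 0 h replicate 2, 15.9 in T2 1 h replicates 1 and 3, 12.4 in T1 24 h replicate 2, 11.8 in T2 48 h replicate 2 and 10.3 in T2 12 h replicate 1, and 5.23 in T1 1 h replicate 2. Their replicates in those groups were at 0.569 or less. T2 0 h replicates 1 and 3 were at 2.85 and 2.30, against 0.156 in replicate 2. Their part in the comparison of 6 h with 3 h was not tested beyond leaving T1 3 h replicate 1 out, after which 6734 of 18221 genes were called.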
